A study of Mus musculus with 16 samples.

Results

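Bone marrow RNA of wild-type mice that received BMX-001 together with 5-fluorouracil (5-FU) was compared with that of wild-type mice that received 5-FU alone. The rule took the 4 libraries of these 2 groups, 2 in each, out of 16 in the series, and every gene that passed a filter on low counts, which was 18258 of the 57132 genes counted. The 2 wild-type PBS libraries, the control, served to read each difference as towards or away from control. The fit also held the 2 wild-type libraries of BMX-001 alone, so that 8 libraries shared 1 estimate of the spread between replicates.

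All wild-type mice were males of 8 to 10 weeks, C57BL/6 in the protocol and spelled CB57BL/6 in the genotype label. The mice that got 5-FU received 20 mg/kg, repeated on day 7. Dosing with BMX-001 (0.5 mg/kg) began 24 h ahead of the first 5-FU and went on at intervals of 3 days. Marrow was taken on day 10 after the first 5-FU dose. The schedule is given relative to 5-FU, and the timing in the groups without 5-FU is not spelled out. The controls are PBS in the title and Control in the treatment label, and RNA was extracted from marrow cells without a stated sort. The Nrf2-/- mice, used once below for comparison, got the same treatments, came from a colony bred from heterozygous mice of both sexes, and have no age or sex in the sources used here. The marrow was isolated in duplicate, and the labels do not say whether the duplicates were different animals, so p-values measure only how far these samples differed, a spread that may be technical.

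5-FU is a pyrimidine analogue whose products block thymidylate synthase and enter RNA and DNA, and proliferating marrow is a main site of its toxicity. BMX-001 is a manganese porphyrin with redox activity, a class made to mimic superoxide dismutase. Marrow makes red cells, granulocytes, monocytes, platelets and B cells from shared progenitors. Maturing erythroblasts fill with haemoglobin, whose haem needs iron and whose oxygen chemistry is held in check by catalase, peroxiredoxins and glutathione peroxidases.

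Total counts of the 8 wild-type libraries ran from 34387432 to 39909188. The 4 adult globin genes took 3.86% and 4.04% of counts in the 5-FU libraries, 5.68% and 5.28% with BMX-001 added and 4.86% and 6.22% in PBS. Mitochondrially encoded transcripts took 1.06% and 1.03% with 5-FU, 0.648% and 0.816% with BMX-001 added and 0.554% and 0.838% in PBS. The 5-FU libraries therefore lay below both other groups in globin share and above them in mitochondrial share. The median absolute log2 difference between the 2 libraries of a group, over 9404 well-expressed genes (mean log2 CPM of at least 3), was 0.078 in 5-FU, 0.10 in the combination, 0.072 in BMX-001 alone and 0.13 in PBS. PBS replicate 2 had 299 normalised CPM (read counts scaled to library size) of the immediate early gene Fos against 15.4 to 37.8 in the other 7 libraries. The labelled tissue showed its markers: over the 8 libraries the erythroid list summed to 60470.0 to 104600.0 CPM, the secondary granule list to 22540.0 to 30580.0 and the B cell precursor list to 1969 to 3019. Only Ahsp and Rhce of 689 listed symbols could not be matched.

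No gene was called higher or lower when BMX-001 was added to 5-FU. Of 18258 genes tested, 0 (0%) passed an adjusted p of 0.05 in edgeR's quasi-likelihood test with Benjamini-Hochberg adjustment, and the smallest adjusted p was 0.328. At an unadjusted p under 0.05 there were 975 higher genes (5.34%) and 907 lower genes (4.97%). That split moved with the scaling, to 1087 higher and 814 lower with relative log expression factors and to 872 and 1011 with upper-quartile factors. Both combination libraries lay above both 5-FU libraries for 4045 genes (22.2%) and below them for 4310 (23.6%). The median log2 fold change of all genes was -0.0015.

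The count of calls depended on the tool. DESeq2 on the same 8 libraries called 30 genes, 18 higher and 12 lower, among them all 4 adult globin genes, Rps14, H2-T23, Unc93b1, Ube3a and Creb1. edgeR without a filter on low counts called 208, 130 higher and 78 lower, of which 206 were in the filtered table and which held 29 of DESeq2's 30. In that unfiltered fit the median prior degrees of freedom over genes was infinite, whereas it was 8.31 in the filtered fit. At an infinite prior a gene's quasi-dispersion comes from the trend with mean level and not from its own replicates. With the 4 compared libraries alone edgeR called 1 gene, the eosinophil peroxidase gene Epx. In what follows no gene is said to have risen or fallen with BMX-001 added, and the values are given as measured.

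**Figure D1:**
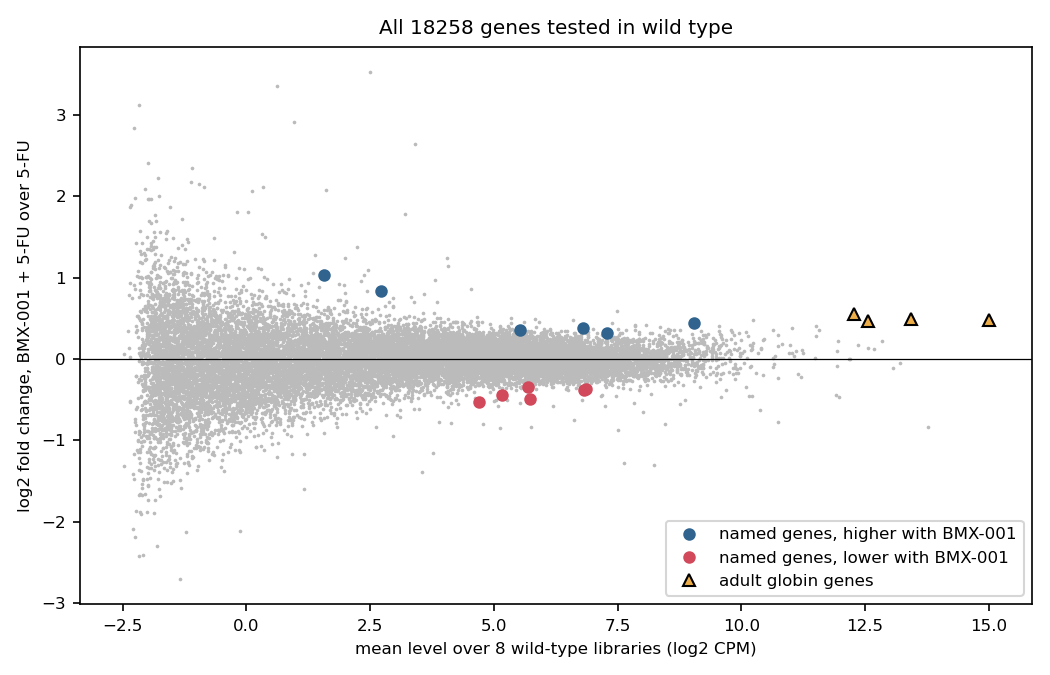
Log2 fold change of BMX-001 with 5-FU over 5-FU alone (vertical axis) against mean level over the 8 wild-type libraries in log2 CPM (horizontal axis), 1 grey point for each of 18258 genes. The named genes of smallest p lie between -0.52 and 1.04, and the 4 adult globin genes (triangles) lie between 0.46 and 0.55.

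5-FU alone gave the reference against which direction was read. Against PBS it raised 671 genes (3.68%) and lowered 734 (4.02%) at an adjusted p under 0.05. The combination against PBS had 0 called genes of 18258 (0%), with 2625 at an unadjusted p under 0.05 and a smallest adjusted p of 0.102, while DESeq2 called 287. These comparisons share libraries: the 5-FU libraries enter 5-FU against PBS and the combination against 5-FU with opposite signs, so a gene whose 5-FU libraries lie low by chance appears low against PBS and high in the combination. The fold changes are therefore set side by side, and their opposition is not counted as evidence. The 5-FU calls also rested on single libraries, with 9 calls without 5-FU replicate 1, 0 without 5-FU replicate 2 and 2619 without PBS replicate 1. In the fit of all 16 libraries 5-FU over PBS had 1 call.

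In the red cell programme the globin genes were higher in both combination libraries than in both 5-FU libraries. The alpha-globin gene Hba-a1 was at 8040.3 and 7220.0 normalised CPM in the 5-FU libraries, 11254 and 10195 in the combination and 11176 and 13738 in PBS. The combination lay above 5-FU without overlap and its first replicate reached the lower PBS value (log2 fold change 0.49 ± 0.12, SE, adjusted p = 0.328). Hbb-bs, a beta-globin gene, stood at 21612 and 24069 CPM with 5-FU, 33095 and 30628 in the combination and 27866 and 38866 in PBS. Here the combination libraries fell between the 2 PBS libraries, and the log2 fold change over 5-FU was 0.48 ± 0.15 (adjusted p = 0.354). Hba-a2 and Hbb-bt had log2 fold changes of 0.55 ± 0.13 and 0.46 ± 0.13 over 5-FU. Hba-a1 and Hba-a2, like Hbb-bs and Hbb-bt, are near-identical copies, so the split of reads between the members of each pair is uncertain.

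With 5-FU alone all 4 globin genes had negative log2 fold changes over PBS, of -0.71 (Hba-a1, adjusted p = 0.0113), -0.78 (Hba-a2), -0.55 (Hbb-bs, adjusted p = 0.049) and -0.58 (Hbb-bt). In other settings Hba-a1 ran from -0.85 to -0.39 and Hbb-bs from -0.76 to -0.29, and neither kept its call in every setting. The combination lay at -0.22 for Hba-a1 and -0.067 for Hbb-bs relative to PBS. In whole marrow, fewer erythroid cells and less globin RNA per cell cannot be told apart.

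**Figure D2:**
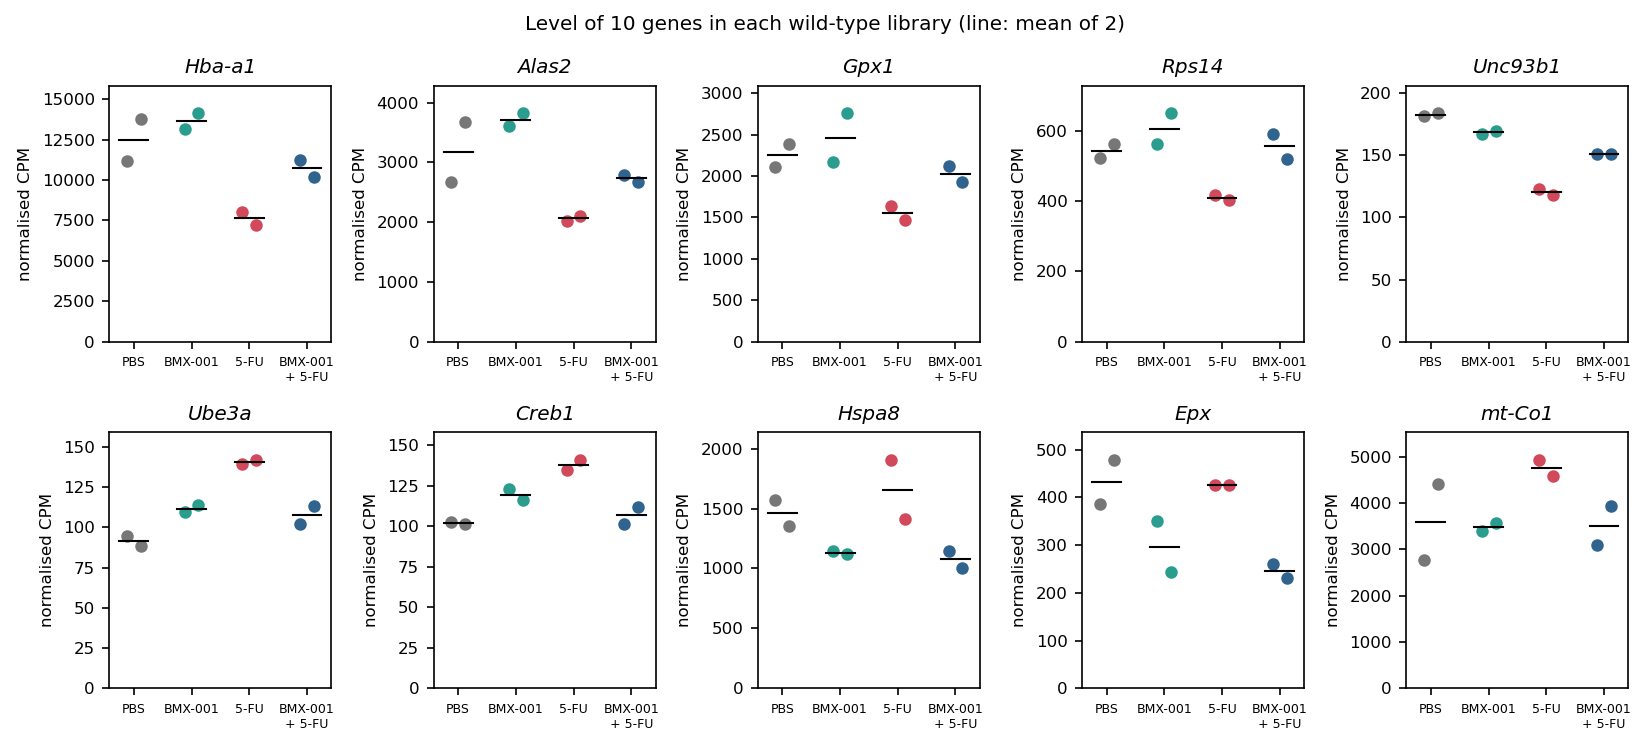
Normalised CPM (vertical axis, from 0) of 10 genes in the 4 wild-type groups, with replicate 1 on the left and replicate 2 on the right of each pair of points and a line at their mean. For Hba-a1, Alas2, Gpx1, Rps14 and Unc93b1 both combination points lie above both 5-FU points, and for Ube3a, Creb1, Hspa8, Epx and mt-Co1 both lie below.

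The regions before 2 of these globin genes and before Alas2 are printed as examples of erythroid genes that lay higher in the combination, a choice made after the values were seen. They are the 250 bases before the annotated start, from RefSeq's promoter table (GRCm38.p6), 5′ to 3′ on the gene's strand, and capitals mark matches to GATAA (core of GATA factor sites), CCAAT (the CCAAT box) and CACCC (core of KLF1 sites) on either strand, motifs that were chosen after the values were seen.
Hba-a1, chr11:32283422-32283671, plus strand: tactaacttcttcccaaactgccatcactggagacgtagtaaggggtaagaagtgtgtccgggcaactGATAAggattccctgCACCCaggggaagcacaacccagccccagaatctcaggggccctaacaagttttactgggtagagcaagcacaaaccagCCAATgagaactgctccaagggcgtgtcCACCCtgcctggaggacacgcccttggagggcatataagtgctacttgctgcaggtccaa
Hbb-bs, chr7:103827929-103828178, minus strand: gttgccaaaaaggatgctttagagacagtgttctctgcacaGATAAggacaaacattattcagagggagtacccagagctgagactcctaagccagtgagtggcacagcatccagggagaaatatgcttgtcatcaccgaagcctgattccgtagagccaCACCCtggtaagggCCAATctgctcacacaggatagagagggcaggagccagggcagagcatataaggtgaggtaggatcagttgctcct
Alas2, chrX:150547167-150547416, plus strand: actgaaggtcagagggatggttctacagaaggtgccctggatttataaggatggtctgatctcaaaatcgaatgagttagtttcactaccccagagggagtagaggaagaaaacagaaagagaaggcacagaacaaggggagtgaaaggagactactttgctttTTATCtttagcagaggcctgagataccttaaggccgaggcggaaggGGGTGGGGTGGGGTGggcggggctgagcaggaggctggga
Each of the 3 regions held 1 GATAA match, a motif found in 22.6% of all 32851 promoters over the same 250 bases. CCAAT (33.8% of promoters) occurred once before each globin gene, 88 bases before the start of Hba-a1 and 76 before that of Hbb-bs, and not in the Alas2 window. CACCC (52% of promoters) occurred 2 times in Hba-a1, once in Hbb-bs and 3 times in Alas2, where copies of its reverse complement adjoin directly. TGACNNNGC, the core of the antioxidant response element that NRF2 binds, and TGANTCA, the AP-1 site, are found in 10.2% and 6.75% of promoters and were in none of the 3 windows. These are letter matches and show no binding.

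Beyond globin, the erythroid differences were small. The list's 34 tested members had a median log2 fold change of 0.12 with BMX-001 added, beside -0.12 for 5-FU over PBS and -0.046 for the combination over PBS. With BMX-001 added 28 of 34 values were positive. The libraries did not overlap for 20 higher (58.8%) and 2 lower members (5.88%), beside 22.2% and 23.6% of all genes. At an unadjusted p under 0.05, 10 members were higher and 1 lower (29.4% and 2.94%), beside 5.34% and 4.97% of all genes. Without one of the 4 compared libraries the number higher was 6 to 8, and the median was 0.072 without 5-FU replicate 2 and 0.179 without 5-FU replicate 1. Bpgm, which makes the 2,3-bisphosphoglycerate that tunes haemoglobin's oxygen affinity, stood at 722 and 785 CPM with 5-FU, 1042 and 1063 in the combination and 1087 and 1592 in PBS. Both combination libraries exceeded both 5-FU libraries but stayed below both PBS libraries (0.48 ± 0.15). Tspo2, an erythroid translocator protein, had 76.1 and 67.7 CPM with 5-FU and 89.2 and 93.6 in the combination (0.35 ± 0.085). Smaller values were those of Tmod1 (0.26), Car1 (0.22), the erythropoietin receptor gene Epor (0.20) and the transcription factor gene Gata1 (0.18).

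Of the 6 erythroid genes with negative values, the one at an unadjusted p under 0.05 was Tfrc, the transferrin receptor that brings iron into erythroblasts and into other dividing cells. It stood at 1335 and 1211 CPM with 5-FU, 1007 and 1004 in the combination and 905 and 1108 in PBS. The combination libraries lay below both 5-FU libraries and inside the PBS range (-0.34 ± 0.11, adjusted p = 0.349).

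Haem synthesis genes followed the globins in sign. Alas2, the rate-limiting enzyme of erythroid haem synthesis, stood at 2021 and 2113 CPM in the 5-FU libraries, 2789.9 and 2677 in the combination and 2674 and 3672 in PBS. The combination exceeded 5-FU without overlap and both of its libraries just passed the lower PBS library (0.40 ± 0.13, adjusted p = 0.354), and 5-FU alone had lowered Alas2 by 0.62 on the log2 scale (a fall with adjusted p = 0.0186). Urod, which decarboxylates uroporphyrinogen, had 238 and 226 CPM with 5-FU and 303 and 278 in the combination (0.33 ± 0.082), and Alad, the second enzyme of the pathway, 164 and 159 with 5-FU against 212 and 185 in the combination (0.30 ± 0.078). Of 25 haem and iron genes tested, 9 were higher and 0 lower at an unadjusted p under 0.05 (36% and 0%), with a median of 0.091 for BMX-001 added and -0.17 for 5-FU over PBS. The 9 included Fech (0.24), which inserts iron, the iron-sulphur assembly genes Iscu (0.29) and Glrx5 (0.25), and the mitochondrial glycine carrier gene Slc25a38 (0.27). The number higher was 3 without 5-FU replicate 2 or without combination replicate 1.

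Transcripts of enzymes that remove peroxides lay higher in the combination as well. Gpx1, a glutathione peroxidase abundant in red cells, stood at 1637 and 1472 CPM with 5-FU, 2119.9 and 1927 in the combination and 2109 and 2389.8 in PBS. The drug groups did not overlap and the combination's first replicate passed the lower PBS value (0.38 ± 0.12, adjusted p = 0.354). Prdx2, the main peroxiredoxin of red cells, had 834 and 852 CPM with 5-FU and 1140.4 and 968 in the combination (0.32 ± 0.097), and Gpx4, which reduces lipid peroxides, 122 and 109.7 with 5-FU against 153 and 136 in the combination (0.32 ± 0.091). Cat, which encodes catalase, stood at 282 and 278 CPM with 5-FU, 335 and 349 in the combination and 382 and 489 in PBS. Catalase stayed below both PBS libraries in both drug groups, with a log2 fold change of 0.29 ± 0.10 for BMX-001 added and of -0.64 for 5-FU over PBS (adjusted p = 0.01). Of the 22 antioxidant genes listed apart from NRF2 targets, 11 were higher and 0 lower at an unadjusted p under 0.05 (50% and 0%), with a median of 0.17 against -0.24 for 5-FU over PBS. That number was 2 without combination replicate 1, 3 without 5-FU replicate 2 and 6 without 5-FU replicate 1. The superoxide dismutase genes are in this list, and none of the 3 was among the 11. The globin share of counts moved with these genes, and its part in their difference was not tested.

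NRF2 targets are genes that NRF2 drives after oxidant stress. NRF2's own gene, Nfe2l2, stood at 121 and 119.7 CPM with 5-FU and 116 and 116 with BMX-001 added, a log2 fold change of -0.052 ± 0.083. Of 35 targets tested, 4 were higher and 1 lower at an unadjusted p under 0.05 (11.4% and 2.86%, beside 5.34% and 4.97% of all genes), and the median was 0.12. The number higher was 0 without combination replicate 1, where the median was 0.043, 1 without 5-FU replicate 2, 7 without combination replicate 2 or PBS replicate 2 and 8 without PBS replicate 1. Nqo1, a quinone reductase, had 16.8 and 16.6 CPM with 5-FU, 20.5 and 19.1 in the combination and 18.5 and 20.7 in PBS. Its combination libraries exceeded the 5-FU libraries and lay within the PBS range (0.24 ± 0.10). Ftl1, ferritin light chain, Blvrb, a biliverdin reductase abundant in red cells, and Cbr1, a carbonyl reductase, were the other 3 (0.23, 0.24 and 0.33). The glutathione synthesis genes Gclc and Gclm had log2 fold changes of 0.051 ± 0.075 and 0.084 ± 0.082, the haem oxygenase gene Hmox1 0.20 ± 0.11 and the thioredoxin reductase gene Txnrd1 -0.010 ± 0.077. Srxn1, which repairs oxidised peroxiredoxins, stood at 17.8 and 18.3 CPM with 5-FU, 23.6 and 19.9 in the combination and 16.6 and 11.9 in PBS, so that both drug groups lay above PBS (0.27 ± 0.15 for BMX-001 added). Slc7a11, the cystine importer, was the lower one. It had 14.0 and 15.7 CPM with 5-FU, 9.56 and 9.86 in the combination and 9.02 and 10.6 in PBS. 5-FU had raised it over PBS (0.59, adjusted p = 0.0412), and the combination lay inside the PBS range (-0.61 ± 0.16, adjusted p = 0.328).

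**Figure D3:**
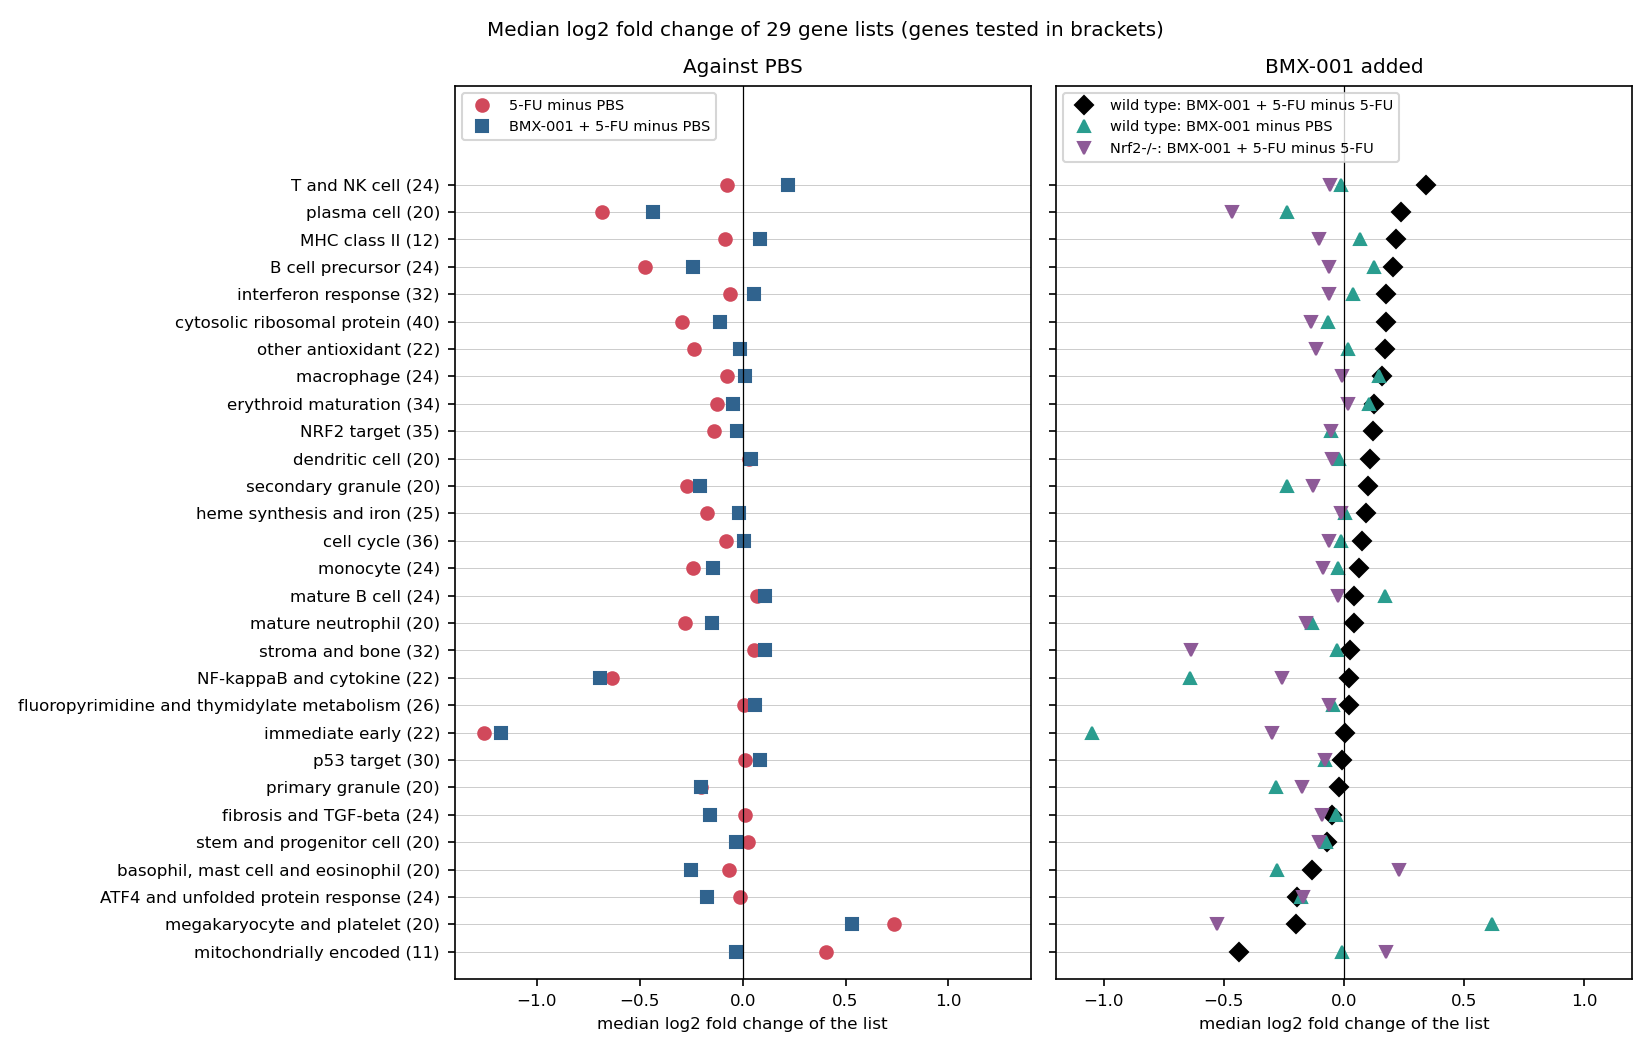
Median log2 fold change (horizontal axis) of 29 gene lists, with the number of genes tested in brackets, ordered by the wild-type difference of BMX-001 with 5-FU from 5-FU alone. Left, 5-FU and the combination against PBS, and right, the 3 comparisons of BMX-001 added or given alone. The erythroid, haem, antioxidant and ribosomal lists have negative medians with 5-FU alone and positive ones in the wild-type comparison. Many other lists do too, among them the B cell precursor, plasma cell and monocyte lists. The mitochondrially encoded list and some others, such as the megakaryocyte list, have the opposite signs. Both comparisons use the 5-FU libraries, which favours opposite signs.

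Ribosomal protein genes had the most even shift. All 40 listed genes had positive log2 fold changes with BMX-001 added, with a median of 0.17. At an unadjusted p under 0.05, 14 were higher and 0 lower (35% and 0%). The libraries did not overlap for 36 (90%), all higher, beside 22.2% of all genes. 5-FU alone had lowered 18 of the 40 relative to PBS at an adjusted p under 0.05, beside 4.02% of all genes. The list median was -0.29 for 5-FU over PBS and -0.11 for the combination over PBS. Rps14, a protein of the small ribosomal subunit, stood at 418 and 402 CPM in the 5-FU libraries, 592 and 519.7 in the combination and 521 and 562 in PBS. Its combination libraries lay one on each side of the PBS values (0.44 ± 0.094, adjusted p = 0.328). Rps27 had 264 and 275 CPM with 5-FU and 353 and 309.5 in the combination (0.30 ± 0.086), and Rps9 652 and 649 with 5-FU against 846 and 725 in the combination (0.27 ± 0.088). In each of these 3 genes the first combination replicate was the higher. Without it the list's median was 0.100 with 1 gene higher at an unadjusted p under 0.05, and without the second replicate 0.253 with 26. The number was 6 without 5-FU replicate 2 and 29 without PBS replicate 1. Ribosomal protein genes have many processed pseudogenes with which short reads can be shared.

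Short and GC-rich transcripts as a whole moved the same way, and ribosomal and globin transcripts are short. With genes in 5 equal bins of length, the shortest had a median log2 fold change of 0.057 with BMX-001 added and the longest -0.088, and in 5 bins of GC content the lowest had -0.095 and the highest 0.067. In 5-FU over PBS these GC bins had 0.207 and -0.178. Within libraries, the level of short over long genes was -0.093 and -0.098 (log2, centred) with 5-FU, 0.117 and -0.03 in the combination and 0.025 and 0.114 in PBS. By length the 5-FU libraries were alike and the combination libraries were not. The level of high-GC over low-GC genes was -0.103 and -0.242 with 5-FU, 0.027 and -0.062 in the combination and 0.292 and 0.113 in PBS. By GC the 5-FU libraries differed more than the combination libraries. Where the trends with length and GC were removed in each library, a setting added after the data were seen, the ribosomal median was 0.077 in place of 0.173, with 6 genes higher in place of 14, and the erythroid median 0.089. The antioxidant list's median was then 0.113 with 4 genes higher in place of 11. In that setting 5-FU over PBS had 255 calls in place of 1405. A cause of the trends was not tested.

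**Figure D4:**
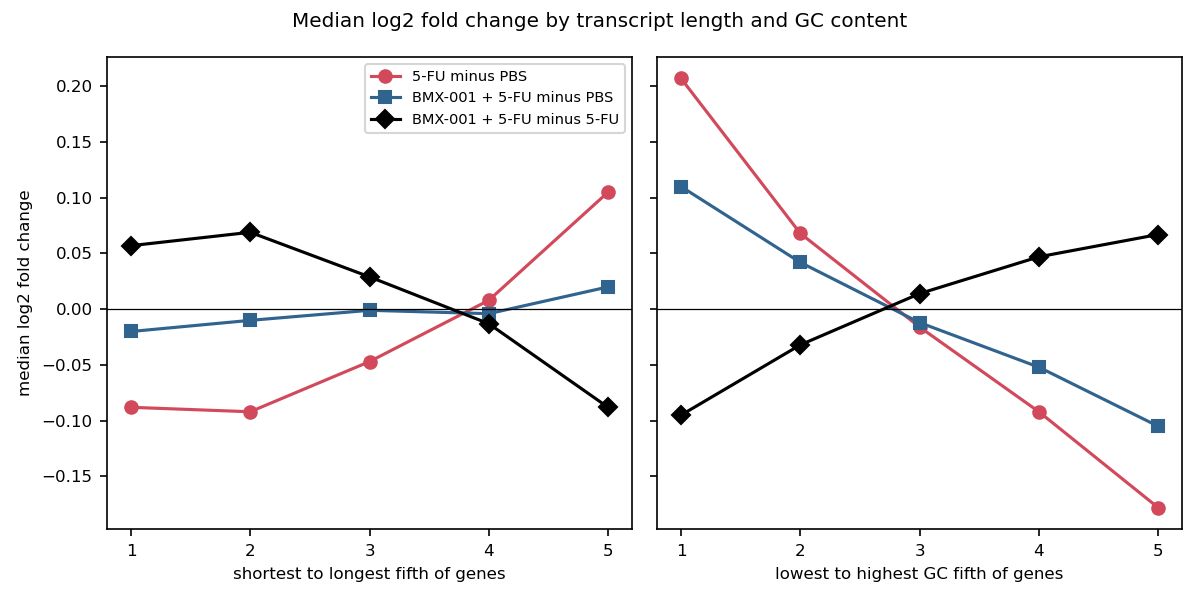
Median log2 fold change (vertical axis) of genes in 5 equal bins of transcript length (left) and of GC content (right), for 5-FU over PBS, the combination over PBS and the combination over 5-FU, for the 95.6% of genes tested that have a value. The 5-FU line falls from 0.207 to -0.178 across the GC bins and the combination over 5-FU runs the other way, from -0.095 to 0.067.

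Transcripts of the mitochondrial genome, which encode subunits of the respiratory chain, were lower in the combination. mt-Co1, a subunit of cytochrome c oxidase, stood at 4927 and 4578 CPM with 5-FU, 3085 and 3935 in the combination and 2775 and 4411 in PBS. Both 5-FU libraries exceeded all 6 other wild-type libraries, while PBS replicates differed from each other by as much as the groups (-0.44 ± 0.22, adjusted p = 0.541). The 11 genes tested had a median of -0.44 for BMX-001 added, 0.40 for 5-FU over PBS and -0.034 for the combination over PBS. Libraries did not overlap for 10 of the 11 (90.9%), all lower, beside 23.6% of all genes. Only 1 of the 11, mt-Atp6 (-0.82), was lower at an unadjusted p under 0.05 (9.09%, beside 4.97% of all genes). That number was 0 without either 5-FU library or combination replicate 1, 3 without combination replicate 2, 8 without either PBS library or with the 4 compared libraries alone, 6 with 15 or 16 libraries and 4 with the replicate block. The list's median was -0.292 without combination replicate 1 and -0.439 with the length and GC trends removed. The nuclear RNA Malat1, which is no protein-coding gene, lay at 5322 and 4782 CPM with 5-FU, 3534 and 3777 in the combination and 2643 and 4780.3 in PBS, higher in both 5-FU libraries than in the combination, and its part was not tested.

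Genes of smallest p in each direction, none of them called, were taken 6 a side. On the higher side, H2-T23, which encodes the non-classical class I molecule Qa-1 seen by NK cells, stood at 88.5 and 89.5 CPM with 5-FU, 119.6 and 112 in the combination and 118 and 127 in PBS. Combination and 5-FU libraries did not overlap (0.38 ± 0.076), though reads of H2-T23 can be shared with its class I relatives. Unc93b1, which carries Toll-like receptors to endosomes, had 123 and 118 CPM with 5-FU, 151 and 151 in the combination and 181 and 183 in PBS. Replicates of Unc93b1 agreed closely and the combination sat between the other groups (0.32 ± 0.067). Elof1, a transcription elongation factor that takes part in repair of transcribed DNA, had 37.2 and 36.1 CPM with 5-FU, 45.5 and 48.5 in the combination and 50.4 and 50.5 in PBS, again between (0.36 ± 0.076). Rps14, given above, was the fourth.

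The other two were low. Zc3h6, a CCCH zinc finger gene, stood at 3.60 and 4.58 CPM with 5-FU, 6.80 and 7.89 in the combination and 6.48 and 6.46 in PBS. The combination lay above both PBS libraries (0.84 ± 0.17). Spon2, an extracellular matrix protein gene, had 1.63 and 1.79 CPM with 5-FU, 3.52 and 3.50 in the combination and 2.92 and 3.16 in PBS (1.04 ± 0.22), and the combination was likewise above PBS. All 6 had an adjusted p of 0.328, and all 6 were nearer to PBS in the combination than in 5-FU. The choice of genes and the placement used the same 5-FU libraries, which favours placement towards PBS. In the main fit all 6 had been lowered by 5-FU alone at an adjusted p of 0.00435 to 0.0451, calls that were not kept in every setting.

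On the lower side, Ube3a, a ubiquitin ligase, stood at 139 and 142 CPM with 5-FU, 102 and 113 in the combination and 94.3 and 88.5 in PBS. Its combination libraries lay between the other groups without touching either (-0.38 ± 0.075), and 5-FU alone had raised it by 0.62 over PBS (adjusted p = 0.00435). Ube3a is overlapped by an antisense transcript, and the strand setting of the counting is not given in the sources used here. Creb1, the cAMP-responsive transcription factor gene, had 135 and 141 CPM with 5-FU, 101 and 112 in the combination and 103 and 101 in PBS (-0.37 ± 0.074). One combination library of Creb1 was at the PBS level and the other above it. Uba6, which activates ubiquitin, had 46.0 and 41.9 CPM with 5-FU and 30.2 and 34.3 in the combination (-0.45 ± 0.094), and Luc7l, a splicing factor gene, 62.9 and 61.2 with 5-FU against 49.8 and 47.9 in the combination (-0.34 ± 0.072). In PBS, Uba6 was at 32.9 and 29.6 CPM and Luc7l at 47.4 and 48.9, each overlapping or next to the combination. Chordc1, a co-chaperone of HSP90, stood at 73.0 and 61.3 CPM with 5-FU, 50.8 and 44.7 in the combination and 51.9 and 47.5 in PBS (-0.49 ± 0.099). Banp, a nuclear DNA-binding protein gene, had 34.4 and 28.9 CPM with 5-FU, 20.1 and 23.9 in the combination and 28.2 and 27.2 in PBS (-0.52 ± 0.11). Banp was the one of the 12 placed away from PBS, with both combination libraries below both PBS libraries. For the lower genes too, the shared 5-FU libraries favour placement towards PBS. The 6 lower genes had the same adjusted p of 0.328 as the higher ones.

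The first gene by p on each side, Ube3a and Zc3h6, are shown with the 250 bases before their start, from the same table and with the same capitals.
Ube3a, chr7:59228500-59228749, plus strand: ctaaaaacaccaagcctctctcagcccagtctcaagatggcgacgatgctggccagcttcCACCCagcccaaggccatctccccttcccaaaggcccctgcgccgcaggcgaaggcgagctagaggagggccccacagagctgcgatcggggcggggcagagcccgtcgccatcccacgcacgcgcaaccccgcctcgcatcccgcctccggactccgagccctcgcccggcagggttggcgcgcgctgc
Zc3h6, chr2:128967152-128967401, plus strand: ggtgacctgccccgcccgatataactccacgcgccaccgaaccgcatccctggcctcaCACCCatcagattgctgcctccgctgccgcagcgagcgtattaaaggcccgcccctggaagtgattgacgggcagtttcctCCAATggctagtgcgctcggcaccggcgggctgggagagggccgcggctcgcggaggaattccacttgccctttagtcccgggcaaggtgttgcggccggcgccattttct
Neither held GATAA, TGACNNNGC or TGANTCA. Each held 1 CACCC, and Zc3h6 held 1 CCAAT 111 bases before its start. Among the 12 genes of smallest p, the 6 lower ones have longest transcripts of 4934 (Luc7l) to 9856 bases (Ube3a) and 35.7% (Chordc1) to 51.5% GC (Banp). The 6 higher ones have 987 (Rps14) to 4916 bases and 43.2% (both Zc3h6) to 57.3% GC (Unc93b1). Zc3h6 is longer and lower in GC than the other 5 higher genes.

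Lymphoid genes lay mostly higher with BMX-001 added. Vpreb3, part of the surrogate light chain machinery of B cell precursors, stood at 37.8 and 35.3 CPM with 5-FU, 39.5 and 51.2 in the combination and 67.3 and 59.1 in PBS. The first combination replicate was close to 5-FU and the second between 5-FU and PBS (0.31 ± 0.11). Cd79a, a chain of the B cell receptor, had 132 and 134 CPM with 5-FU and 165 and 153 in the combination (0.26 ± 0.076), and Tcf3, the E2A factor that opens the B cell programme, 138 and 137 with 5-FU against 157 and 169 in the combination (0.25 ± 0.070). PBS libraries had 195 and 176 CPM of Cd79a and 195 and 192 of Tcf3, above both drug groups. Of 24 B cell precursor genes, 8 were higher and 0 lower at an unadjusted p under 0.05 (33.3% and 0%), with a median of 0.20 for BMX-001 added. 5-FU alone had lowered 10 of the 24 over PBS at an adjusted p under 0.05, beside 4.02% of all genes. The list median was -0.47 for 5-FU over PBS and -0.24 for the combination over PBS. The number higher ranged from 4, beside 5 lower, without combination replicate 2 to 16 without replicate 1.

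Mature B cell genes had a median of 0.040, with 14 values positive and 10 negative. At an unadjusted p under 0.05, 2 of 24 were higher and 1 lower (8.33% and 4.17%), beside 5.34% and 4.97% of all genes. The 1 lower was the complement receptor gene Cr2, which marks mature B cells. It stood at 24.1 and 24.3 CPM with 5-FU, 17.3 and 16.1 in the combination and 11.3 and 11.7 in PBS. The 3 groups were separate, with 5-FU highest (-0.54 ± 0.13 for BMX-001 added, adjusted p = 0.328, and 1.07 for 5-FU over PBS, adjusted p = 0.00435). T and NK cell genes had the highest median of all lists, 0.34, but wide spread between replicates. Trbc2, a T cell receptor constant region, had 6.52 and 8.85 CPM with 5-FU, 12.8 and 9.25 in the combination and 7.39 and 11.8 in PBS (0.52 ± 0.25). Of 24 T and NK cell genes 2 were higher at an unadjusted p under 0.05 (8.33%, beside 5.34% of all genes). The list's median was 0.058 without combination replicate 1 and 0.578 without replicate 2. The number higher was 0 without combination replicate 1 or 5-FU replicate 1, 14 without combination replicate 2 and 5 without 5-FU replicate 2 or either PBS library. Plasma cell genes had a median of 0.24 with 1 of 20 higher at an unadjusted p under 0.05 (5%, beside 5.34% of all genes). This was Tent5c, a poly(A) polymerase gene also high in erythroblasts.

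Among myeloid cells, macrophage genes stood out by the complement C1q genes. C1qa stood at 43.6 and 38.0 CPM with 5-FU, 47.9 and 56.0 in the combination and 56.1 and 48.3 in PBS, and C1qb at 45.5 and 44.9 with 5-FU, 54.1 and 56.0 in the combination and 56.8 and 51.6 in PBS. The combination exceeded 5-FU without overlap in both and lay near PBS (0.35 ± 0.10 and 0.29 ± 0.076, adjusted p = 0.342 and 0.328). C1qc (0.29 ± 0.086), the lipid carrier gene Apoe (0.30), the secreted macrophage protein gene Cd5l (0.27) and the phosphatidylserine receptor gene Timd4 (0.44) were among the 8 of 24 macrophage genes higher at an unadjusted p under 0.05 (33.3%), with 0 lower and a median of 0.16. Without combination replicate 2 the list's median was 0.006. In the fit of 16 libraries 0 of the 24 were higher at that p, and with length and GC trends removed 4 were higher and 1 lower. The list's values thus depended on that library and on the fit. C1q and TIMD4 take part in the clearance of dying cells.

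Of 24 monocyte genes 5 were higher at an unadjusted p under 0.05 (20.8%) and the median was 0.064. The number was 1 without 5-FU replicate 1 and in the fit of 16 libraries, 3 without combination replicate 1, where the median was 0.14, and 2, beside 1 lower, without combination replicate 2. The chemokine gene Ccl9 had 43.3 and 43.0 CPM with 5-FU, 53.8 and 64.4 in the combination and 65.7 and 78.9 in PBS, so the combination lay between (0.45 ± 0.11). The chemokine receptor gene Cx3cr1 had 30.3 and 34.0 CPM with 5-FU, 37.2 and 40.3 in the combination and 52.6 and 51.6 in PBS (0.27 ± 0.086). Both genes had been lowered by 5-FU alone (adjusted p = 0.00904 and 0.00435).

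Neutrophil lists were mixed. The secondary granule list had a median of 0.10, the mature neutrophil list 0.040 and the primary granule list -0.020. Without overlap, 50% of secondary granule genes were higher and 5% lower, beside 22.2% and 23.6% of all genes. These shares were 15% and 20% for mature neutrophil genes and 5% and 30% for primary granule genes. At an unadjusted p under 0.05, 10% of secondary granule genes were higher and 0% lower, beside 5.34% and 4.97% of all genes. Camp, the cathelicidin gene of secondary granules, stood at 1224 and 1388 CPM with 5-FU, 1732 and 1604 in the combination and 1697 and 1904 in PBS (0.35 ± 0.096), while lactoferrin, Ltf, another secondary granule gene, stood at 4440.3 and 4692 with 5-FU, 4696 and 4427 in the combination and 5031 and 5423 in PBS (-0.0014 ± 0.097). One combination library of Camp lay within the PBS range and one below it, and Ltf did not separate the drug groups. Mpo, the myeloperoxidase gene, had 2040.3 and 1745 CPM with 5-FU and 1518 and 1691 in the combination (-0.24 ± 0.15), and stem and progenitor genes had a median of -0.069.

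The eosinophil granule genes Epx and Prg2 were lower in the combination than in both 5-FU and PBS. Epx, eosinophil peroxidase, stood at 426 and 427 CPM in the 5-FU libraries, 259 and 230.5 in the combination and 386 and 478 in PBS. Both combination libraries lay below all 5-FU and PBS libraries (-0.80 ± 0.18, adjusted p = 0.328, and adjusted p = 0.006 with the 4 compared libraries alone). Prg2, the major basic protein, had 1238 and 1291 CPM with 5-FU and 1018 and 824 in the combination (-0.46 ± 0.28), and Il5ra, the IL-5 receptor, 10.5 and 11.8 with 5-FU against 9.34 and 7.48 in the combination (-0.41 ± 0.17). BMX-001 alone gave 350.4 and 243 CPM of Epx, a log2 fold change of -0.54 ± 0.18 over PBS. Il5ra in the combination lay at -0.13 relative to PBS, with libraries that overlapped. Of 20 basophil, mast cell and eosinophil genes 9 were lower (45%) and 2 higher (10%) without overlap, beside 23.6% and 22.2% of all genes. At an unadjusted p under 0.05, 2 were lower and 1 higher (10% and 5%), beside 4.97% and 5.34% of all genes. The median was -0.14, with 13 values negative and 7 positive. The ribonuclease genes Ear1 and Ear6 (-0.54 and -0.58) belong to a family of near-identical copies.

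Megakaryocyte and platelet genes overlapped between the drug groups in all 20 cases, whereas 22.2% of all genes were higher and 23.6% lower without overlap. The platelet chemokine gene Ppbp had 327 and 196 CPM with 5-FU, 132 and 277 in the combination and 193 and 26.6 in PBS, a spread between replicates as wide as any difference between groups (-0.35 ± 1.02). Stroma and bone genes had a median of 0.027 with 0 of 32 at an unadjusted p under 0.05, beside 5.34% higher and 4.97% lower among all genes.

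**Figure D5:**
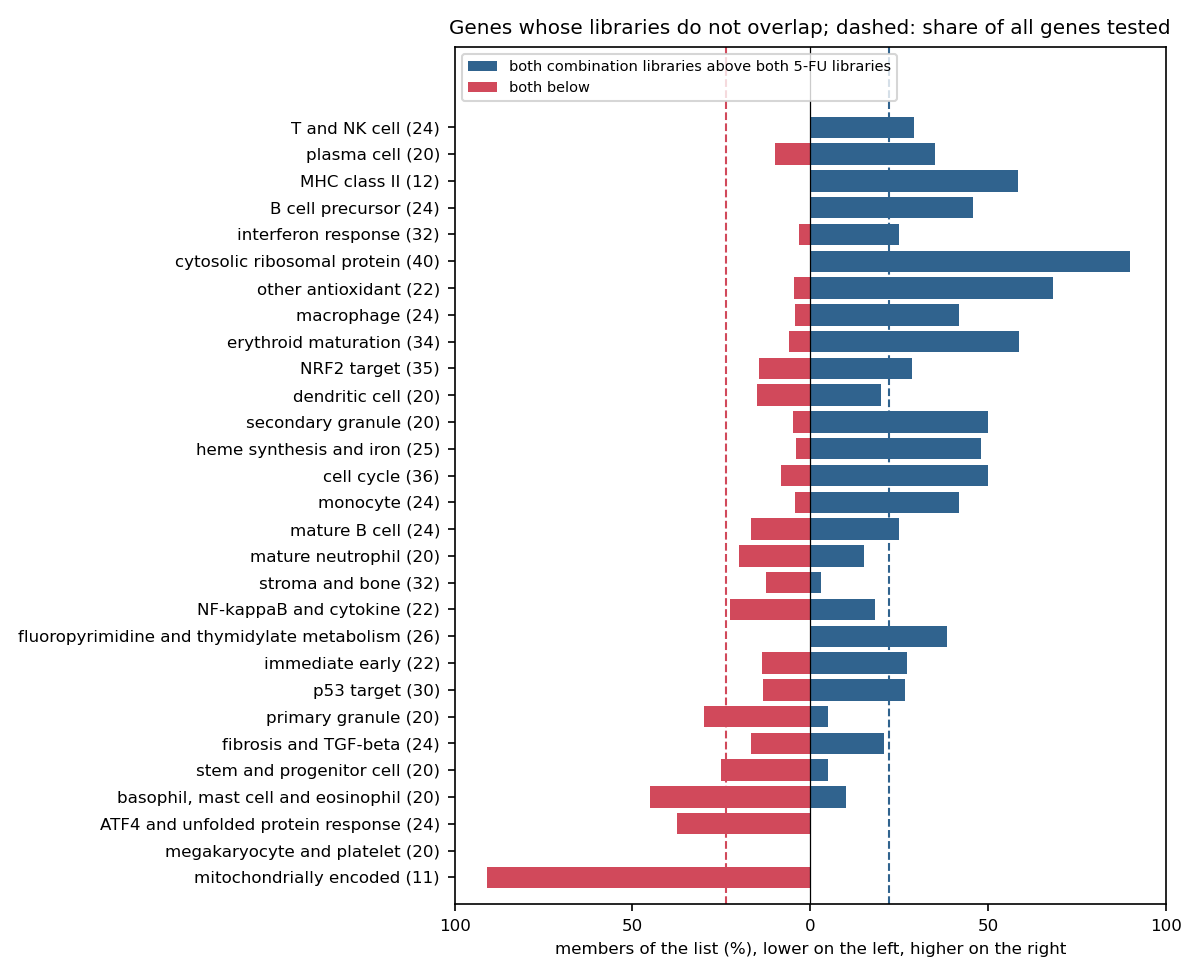
Share of each list's genes (horizontal axis, percent) whose 2 combination libraries both lay above (right, blue) or both below (left, red) the 2 5-FU libraries, with dashed lines at the shares of all genes tested, 22.2% and 23.6%. Ribosomal protein genes reach 90% on the higher side and mitochondrially encoded genes 90.9% on the lower side, and megakaryocyte genes have none on either.

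The enzyme that 5-FU products block did not separate the drug groups. Thymidylate synthase, Tyms, the main target, stood at 101 and 103 CPM with 5-FU, 103 and 100.1 in the combination and 87.2 and 90.3 in PBS. Tyms differed between the drug groups by less than the replicate spread, and was above PBS in all 4 libraries (-0.0039 ± 0.066 for BMX-001 added). Of 26 genes of fluoropyrimidine and thymidylate metabolism, 6 were higher and 0 lower at an unadjusted p under 0.05 (23.1% and 0%), with a median of 0.020. Tk1, the thymidine kinase of the salvage route that bypasses thymidylate synthase, had 103 and 113 CPM with 5-FU, 134 and 127 in the combination and 115 and 136 in PBS (0.27 ± 0.091). Its mitochondrial counterpart Tk2 had 25.3 and 25.3 CPM with 5-FU and 31.5 and 32.3 in the combination (0.33 ± 0.082). Neither overlapped between the drug groups. The number of the list's genes higher was 1 without 5-FU replicate 1 and 1, beside 3 lower, without combination replicate 1.

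Of 36 cell cycle genes, 27 had positive values, 6 were higher and 0 lower at an unadjusted p under 0.05 (16.7% and 0%), and the median was 0.073. The number higher was 2 without 5-FU replicate 1 or combination replicate 1, 1 in the fit of 16 libraries and 10 without PBS replicate 1. Ccnb2, a mitotic cyclin, had 139 and 134 CPM with 5-FU, 169 and 165 in the combination and 165 and 188 in PBS, and the combination was at the PBS level (0.29 ± 0.077). Gins2, of the replicative helicase, had 17.2 and 19.7 CPM with 5-FU, 25.6 and 23.3 in the combination and 23.8 and 22.7 in PBS (0.41 ± 0.10). The proliferation marker gene Mki67, a long transcript, had the opposite sign (-0.082 ± 0.096, but 0.039 with length and GC trends removed), with 3893 and 4191 CPM with 5-FU and 3601 and 4036 in the combination.

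p53 targets, the transcripts that DNA damage induces, had a median of -0.0070 for BMX-001 added. At an unadjusted p under 0.05, 1 of 30 was higher (3.33%, beside 5.34% of all genes), the apoptosis gene Bax (0.35 ± 0.13). 5-FU alone had raised 5 of the 30 over PBS at an adjusted p under 0.05, beside 3.68% of all genes. Cdkn1a, which encodes the cell cycle inhibitor p21, stood at 14.7 and 15.8 CPM with 5-FU, 18.1 and 11.5 in the combination and 8.55 and 20.3 in PBS (-0.043 ± 0.46), and Mdm2, which encodes the ligase that degrades p53, had 62.1 and 64.5 with 5-FU against 67.9 and 67.4 in the combination (0.095 ± 0.084). The replicates of Cdkn1a overlapped in all groups. Eda2r, a p53-induced receptor gene, was low throughout, with 0.674 and 0.980 CPM with 5-FU and 1.06 and 1.62 in the combination against 0.0552 and 0.216 in PBS. Both drug groups were above PBS, the combination the higher (0.68 for BMX-001 added, 2.58 for 5-FU over PBS with adjusted p = 0.0186).

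ATF4 and unfolded protein response genes, which answer amino acid shortage and misfolded protein, had 5 of 24 lower and 0 higher at an unadjusted p under 0.05 (20.8% and 0%) and a median of -0.20. Hspa5, the endoplasmic reticulum chaperone BiP, had 732 and 549 CPM with 5-FU, 539 and 467 in the combination and 669.9 and 603 in PBS (-0.35 ± 0.14). The first 5-FU replicate was high, and without it the list's median was -0.055 with 1 gene lower. It was -0.035 without combination replicate 2, with 3 higher and 1 lower, and 8 genes were lower without combination replicate 1 or either PBS library. Calr, calreticulin, and Chac1, a glutathione-degrading enzyme gene, had log2 fold changes of -0.24 ± 0.11 and -0.49 ± 0.22.

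Interferon response genes had 5 of 32 higher and 0 lower at an unadjusted p under 0.05 (15.6% and 0%) and a median of 0.17. Rsad2, the antiviral protein viperin, stood at 678 and 582 CPM with 5-FU, 831 and 782 in the combination and 772 and 1071 in PBS, with the combination inside the PBS range (0.36 ± 0.15). Ifit1 had 11.5 and 8.43 CPM with 5-FU, 14.0 and 12.4 in the combination and 14.4 and 18.9 in PBS (0.40 ± 0.17). Without combination replicate 1, or without 5-FU replicate 2, no interferon gene was higher at that p, and 8 were without combination replicate 2 or PBS replicate 1. MHC class II genes had a median of 0.22 with 2 of 12 higher at an unadjusted p under 0.05 (16.7%, beside 5.34% of all genes). That number was 0 without either 5-FU library or combination replicate 1 (median 0.051 without the latter), 8 without combination replicate 2 (median 0.341), and 4 and 3 without PBS replicates 1 and 2. Medians were, for dendritic cell genes 0.11, NF-kappaB and cytokine genes 0.022 and immediate early genes 0.0040. Immediate early medians against PBS (-1.26 and -1.18) include PBS replicate 2, the library with high Fos, whose part was not tested.

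Fibrosis and TGF-beta genes had a median of -0.052, and 2 of 24 (8.33%, beside 5.34% of all genes) were higher at an unadjusted p under 0.05. These were the matricellular genes Ccn1 and Ccn2, and both were near the limit of counting. Ccn1 had 0.0562 and 0.147 CPM with 5-FU, 0.197 and 0.758 in the combination and 0.800 and 0.865 in PBS, and Ccn2 had 0.955 and 0.809 with 5-FU, 1.60 and 1.52 in the combination and 1.93 and 1.73 in PBS. In both genes 5-FU was lowest.

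The 10 genes with the largest called changes under 5-FU alone were followed into the combination. Of the 5 raised ones, Zfp40 and Zfp58, zinc finger genes, had log2 fold changes over PBS of 1.21 and 1.06 with 5-FU and 0.54 and 0.92 in the combination, Cr2 is given above, and BE692007 had 1.09 and 0.76. The locus of the erythroid microRNA miR-144, Mir144, stood at 5.25 and 7.33 CPM with 5-FU, 4.78 and 4.60 in the combination and 2.79 and 2.27 in PBS. These are reads on the locus in total RNA, not the mature microRNA, and the combination lay between the other groups (-0.43 ± 0.24). Of the 5 lowered ones, Pafah1b3, a subunit of platelet-activating factor acetylhydrolase, had 16.4 and 16.4 CPM with 5-FU, 19.4 and 25.6 in the combination and 33.4 and 31.8 in PBS. The 3 groups were separate (0.45 ± 0.12). Mybpc2, P2rx3, Egfl6 and Zfpl1 had log2 fold changes over PBS of -1.31, -1.16, -1.04 and -0.92 with 5-FU and of -0.83, -0.46, -0.51 and -0.52 in the combination. By group mean all 10 lay between PBS and 5-FU in the combination, which their choice by the 5-FU libraries favours.

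BMX-001 given without 5-FU shares no library with the comparison above. It called 0 of 18258 genes against PBS (0%), with 2057 at an unadjusted p under 0.05, a smallest adjusted p of 0.135 and 107 calls by DESeq2. Across all genes its log2 fold changes had a Pearson r of -0.066 and a Spearman rho of -0.10 with those of BMX-001 added to 5-FU, as a description over genes, which are not independent. The erythroid list had a median of 0.10 with BMX-001 alone and 0.12 when it was added to 5-FU, and Hbb-bs log2 fold changes of 0.37 ± 0.15 and 0.48 ± 0.15. For ribosomal genes the medians were -0.067 and 0.17, and for the antioxidant list 0.017 and 0.17.

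The difference between these 2 effects was tested as an interaction, and 0 of 18258 genes were called (0%), with 2412 at an unadjusted p under 0.05, a smallest adjusted p of 0.152 and 61 calls by DESeq2. The genes of smallest p were Kpna4, which encodes an importin, Ube3a and ENSMUSG00000120144.1, which has no symbol here. Kpna4 stood at 93.3 and 87.1 CPM in PBS, 117 and 116 with BMX-001, 132 and 131 with 5-FU and 113 and 111 with both. It was higher with BMX-001 in the absence of 5-FU (0.37 ± 0.069) and lower in its presence (-0.24 ± 0.068), an interaction of -0.61 ± 0.097 (adjusted p = 0.152). Ube3a had the same signs, with 94.3 and 88.5 CPM in PBS and 109 and 114 with BMX-001 (interaction -0.67 ± 0.11).

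In Nrf2-/- marrow, adding BMX-001 to 5-FU called 0 of 19152 genes (0%) in the fit of all 16 libraries, with 499 at an unadjusted p under 0.05, a smallest adjusted p of 1 and 6 calls by DESeq2. In this same fit the wild-type comparison had 753 genes at an unadjusted p under 0.05, beside 1882 in the 8-library fit used above. Counts of the 2 genotypes are therefore comparable only within the fit of 16. The test of the difference between genotypes also called 0 of 19152 (0%), with 891 at an unadjusted p under 0.05, a smallest adjusted p of 0.966 and 1 call by DESeq2, the immunoglobulin segment Igkv8-19. Log2 fold changes of the 2 genotypes, which share no library, had a Pearson r of -0.15 and a Spearman rho of -0.18 across 18248 genes. Medians in Nrf2-/- were 0.015 for erythroid, -0.012 for haem, -0.12 for antioxidant, -0.14 for ribosomal and 0.18 for mitochondrially encoded genes. Hba-a1 had 0.16 ± 0.16 in Nrf2-/- and 0.49 ± 0.12 in wild type, and Rps14 -0.088 ± 0.14 and 0.44 ± 0.094. These wild-type values, and that of Epx, are from the 8-library fit, so the SE of the genotypes come from different fits. Epx had 0.87 ± 0.57 in Nrf2-/- and -0.80 ± 0.18 in wild type, with an adjusted p of 0.966 for the difference. After Igkv8-19 and the predicted gene Gm16299, Elof1 had the smallest p of the test between genotypes (-0.51 ± 0.12, adjusted p = 0.966). The deleted gene Nfe2l2 was at 6.08 to 18.2 CPM in the 8 Nrf2-/- libraries (unscaled) and at 96.0 to 126 in wild type. One library of Nrf2-/- with BMX-001 alone stood apart, with 13370 CPM of Malat1. It is in neither compared group and enters this fit through the filter on low counts, the scaling and the shared spread. Without it the interferon-inducible gene Ifi208 had a log2 fold change of 1.41 in the Nrf2-/- comparison. The sexes and ages of the genotypes are not known to match.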

How the data were processed

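The authors deposited 1 table of raw counts per Ensembl gene, whole numbers for 57132 genes in 16 libraries, and 0 columns were left unused. The submitters' processing notes name GRCm39, featureCounts, Salmon 1.4.0, Trim Galore 0.6.4, FastQC 0.12.1, R 4.3.0 and DESeq2 1.38.3. Not given in the sources used here are the aligner, the annotation release and whether counting used strand. Symbols were joined by gene ID (51880 of 57132 matched), and transcript length and GC content came from GENCODE's longest transcript per gene on GRCm38. In R 4.3.3 the 8 wild-type libraries were filtered with filterByExpr, scaled by TMM and fitted with 4 group means by edgeR 4.0.16 (robust quasi-likelihood test, 4 residual degrees of freedom, common biological coefficient of variation 0.12), and all 16 libraries likewise for the Nrf2-/- comparisons. The threshold for a call was an adjusted p (Benjamini-Hochberg, all genes tested) of 0.05. Levels are TMM-normalised CPM per library, and fold changes are log2 with standard errors (SE). For the 9404 genes whose mean log2 CPM reached 3 the median SE was 0.095 and the median absolute log2 fold change 0.10 for the combination over 5-FU. DESeq2 1.42.0, other scalings, filters and sets of libraries were alternatives.

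The members and the 29 gene lists were chosen with earlier results of these data known. Named genes were the 6 of smallest p on each side of the main comparison with mean log2 CPM 1 or more, non-overlapping groups and no predicted, immunoglobulin, T cell receptor or pseudogene name, the highest member of each list, the 5 highest and 5 lowest called fold changes of 5-FU over PBS, 3 genes for each interaction, and Nfe2l2 and Tyms. Other genes named were chosen after their values were seen, and some withheld items are not reported here. Replicates differed by more than sampling noise in each group, so none was merged.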

Additional observations from a re-analysis of the deposited data

How the results depend on the processing

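For BMX-001 added to 5-FU the count of 0 calls was also 0 with all 16 libraries, with 15, with either other scaling, with a stricter filter and with length and GC trends removed. It was 1 with the 4 compared libraries, 30 with DESeq2, 208 without a filter, and 0 to 4 when 1 library was left out: 4 without PBS replicate 1 (Cirbp, Fosl2, Bpgm, Taf1d), 3 without PBS replicate 2 (Cirbp, Fosl2, Taf1d) and 1 without combination replicate 1 (Ighv1-66). The 1405 calls of 5-FU over PBS became 1 with 16 libraries, 255 with length and GC trends removed, and 0 to 2619 when 1 library was left out, with 768 and 749 without BMX-001 replicates 1 and 2. The combination over PBS had 2 calls with 15 libraries, 287 with DESeq2 and 0 to 950 with 1 library left out, of which 950 without PBS replicate 1 and 37 without PBS replicate 2. BMX-001 alone had 107 with DESeq2 and 0 to 735, the interaction with 5-FU 61 and 0 to 679, and in both the most came without PBS replicate 1. The Nrf2-/- comparison had 1 call with 15 libraries, 6 with DESeq2 and 0 to 1 with 1 library left out, and the test between genotypes 1 and 0 to 1. A lone library was assumed to vary like the other groups.

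With the replicate number as a block the main count was 0, and 0 with the numbers of the combination crossed, an alternative added after the data were seen. Differences between replicates correlated at -0.23 to 0.33 between groups, and nothing in the labels says that a number marks a shared animal or day. No other comparison's count moved by over 1.5 times under the block.

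Some small values changed sign. With length and GC trends removed the log2 fold changes were -0.011 for Lmo2, -0.013 for Cd74, 0.039 for Mki67 and 0.014 for Tyms, and Tyms was 0.006 with 4 libraries and 0.005 with relative log expression factors and with DESeq2. With 1 library left out the ranges were -0.019 to 0.015 for Tyms, -0.011 to 0.108 for Slc40a1, -0.087 to 0.319 for Cd74, -0.070 to 0.246 for Smarca4, -0.266 to 0.330 for Cxcl12, -0.003 to 0.110 for Btg2, -0.099 to 0.222 for Mmp9 and -0.296 to 0.048 for Zfp58. The cause was not tested. Over all named genes and settings 1411 values kept direction and side of the threshold, 125 lost a call, 51 gained one and 18 changed sign, and 518 list medians stayed within the replicate spread while 33 moved. Depth was high in all libraries, and the 2 libraries a group, with a median SE of 0.095, limit the precision.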

Other observations

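Genes in these paragraphs were chosen after their values were seen. Some chaperone genes, whose products fold damaged proteins, had lower values in the combination than in 5-FU and others overlapped. Hspa8, the constitutive HSP70, stood at 1906 and 1411 normalised CPM with 5-FU, 1147 and 1002 in the combination, 1569.8 and 1355 in PBS and 1142 and 1121 with BMX-001 alone. Both groups with BMX-001 lay below both groups without it (-0.63 ± 0.14 for the combination over 5-FU, edgeR adjusted p = 0.328). Its co-chaperone Dnaja1 had 159 and 117 CPM with 5-FU and 102 and 91.5 in the combination (-0.51 ± 0.13). Inducible members varied between the 5-FU libraries: Hsph1 had 179.8 and 106 CPM and Hspa1b 4.24 and 0.711, with replicate 1 the higher in both, and 113 and 57.7 and 1.26 and 1.07 in the combination. Other chaperone genes overlapped between the drug groups, with log2 fold changes of -0.22 ± 0.13 for Hsp90aa1, -0.099 ± 0.10 for Hsp90ab1, -0.20 ± 0.13 for Hspd1, -0.028 ± 0.090 for Dnajb1 and 0.050 ± 0.14 for Hspe1.

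The cold-inducible RNA-binding protein genes lay the other way. Cirbp stood at 7.72 and 10.5 CPM with 5-FU, 21.6 and 18.7 in the combination and 14.3 and 27.9 in PBS, with 5-FU below all other wild-type libraries (1.14 ± 0.33, edgeR adjusted p = 0.394). Rbm3 had 207 and 192 CPM with 5-FU, 229.8 and 271 in the combination and 278 and 316 in PBS (0.33 ± 0.094), and 5-FU alone had lowered it over PBS (edgeR adjusted p = 0.01).

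Among genes that DESeq2 called but edgeR did not, Slc25a39, a mitochondrial carrier of glutathione, stood at 251 and 231 CPM with 5-FU, 327 and 306 in the combination and 317 and 397 in PBS (0.39 ± 0.10 in edgeR). E2f2, a cell cycle transcription factor of erythroblasts, had 624 and 638 CPM with 5-FU, 781 and 787 in the combination and 744 and 842 in PBS (0.31 ± 0.083). Fosl2, an AP-1 subunit, had 173 and 166 CPM with 5-FU and 122 and 126 in the combination, below the 131 and 174 of PBS (-0.44 ± 0.11). In Slc25a39 and E2f2 the combination exceeded 5-FU in both libraries, and in Fosl2 it was below every PBS and 5-FU library.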
